A study of Arabidopsis thaliana with 2 samples.

Results

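The genes described here are those that the plastid genome of Arabidopsis thaliana holds for its own ribosome and its own RNA polymerase. They were taken by name, as plastid-encoded genes whose symbol begins with rpl (large ribosomal subunit), rps (small ribosomal subunit) or rpo (RNA polymerase), and each was read from a probe set that the array's annotation gives to that gene alone. This gave 19 genes, 7 of the large subunit, 8 of the small subunit and 4 of the polymerase, among 13356 named genes on the array and 69 named plastid genes. Each had a single such probe set. The gene table lists 25 symbols of this kind in the plastid genome, and the other 6 had no probe set of their own here. A further 5 probe sets that list several copies of such genes are given only as a range.

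Array signals were measured in whole shoots of ecotype Col-0, with 1 Affymetrix ATH1 array per group. The NPA group grew on agar medium with N-1-naphthylphthalamic acid, an inhibitor of polar auxin transport, dissolved in DMSO. The DMSO group grew on the same medium with an equal volume of the solvent alone. Both groups were wild-type shoots of about 2 weeks with about 6 rosette leaves, labelled developmental stage 1.04, grown in a 16 h light period near 20 C from seed that had been stratified in the cold for 2 days or longer. For the dose of NPA the labels state 10 uM in one field and 10 mM in another, and it was not settled here. They do not say how many plants went into an array.

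With 1 array per group, no value here has a replicate check, no test could be run, and precision is limited by the number of arrays. The median signal was 44.5 on the NPA array and 43.3 on the DMSO array. Signals up to an array's 40th percentile, 27.9 with NPA and 28.3 with DMSO, were treated as at the floor, and a gene above the floor in at least 1 array was called measured. Technical spread between the arrays was read from 18 probe sets of hybridisation spike-ins, whose log2 ratio of NPA over DMSO averaged -0.07 with an SD of 0.21 and ranged from -0.61 to 0.20. That spread leaves out differences between plants, between RNA extractions and between labelling reactions. Of the green shoot markers, 4 of 9 were named, all above the floor, with summed signals of 13268 with NPA and 17479 with DMSO. Of the root markers, 3 of 4 were named and 2 were above the floor, PYK10 at 425 with NPA and 609 with DMSO and EXPA18 at 28.3 with NPA and 36.8 with DMSO. EXPA7, a root hair gene, was below the floor in both arrays, and none of the 4 flower markers was named. Green and root markers were thus both lower on the NPA array, where EXPA18 was barely above the floor. The 4 green markers had a median log2 ratio of -0.38, with a range from -0.77 to -0.21. The 130 nuclear genes with a mean signal over 1000, which include these 4, had the same median. What part the markers have in the results below was not tested. In whole shoots, fewer cells of a type and less RNA per cell cannot be told apart.

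Plastids descend from a cyanobacterium-like ancestor and keep a bacterial-type ribosome, whose RNAs and some of whose proteins are encoded in the plastid genome while the remaining proteins come from nuclear genes. The plastid-encoded RNA polymerase has a bacterial-type core made from rpoA, rpoB, rpoC1 and rpoC2, takes nuclear-encoded sigma factors, and transcribes above all the photosynthesis genes. A nuclear-encoded, phage-type polymerase transcribes the rpoB operon and other housekeeping genes. Most plastid genes are transcribed together with their neighbours and the long transcripts are then cut, spliced and edited. In young leaves, building this gene expression machinery comes ahead of building the photosynthetic apparatus.

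Transcripts of the plastid ribosome and polymerase genes had a lower signal on the NPA array than on the DMSO array throughout. For the 17 genes above both floors the difference was less than 2-fold. All 18 measured genes had a log2 ratio of NPA over DMSO below 0, against 52.6% of all 7753 measured named genes. The median log2 ratio of the 18 was -0.58, against -0.03 for all named genes. With rps14 counted at its floored value, none of the 18 reached 2-fold lower, a size that 2.13% of all named genes reached. None reached 2-fold higher, which 3.75% did. At 1.5-fold, 9 of the 18 were lower, against 10.6% of all named genes, and none was higher by that size, against 11.2%. At a log2 ratio of -0.59, rpl16 lay just inside the 1.5-fold limit, while rps2, at 1.48-fold lower, lay just outside it. A log2 ratio of -0.5 or lower was found in 14 of the 18 and in 14.3% of all named genes. The lowest log2 ratio was that of rpl32, at -0.90, and the highest that of rps4, at -0.05. The 5 probe sets that list several copies of such genes had log2 ratios from -0.50 to -0.39.

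**Figure D1:**
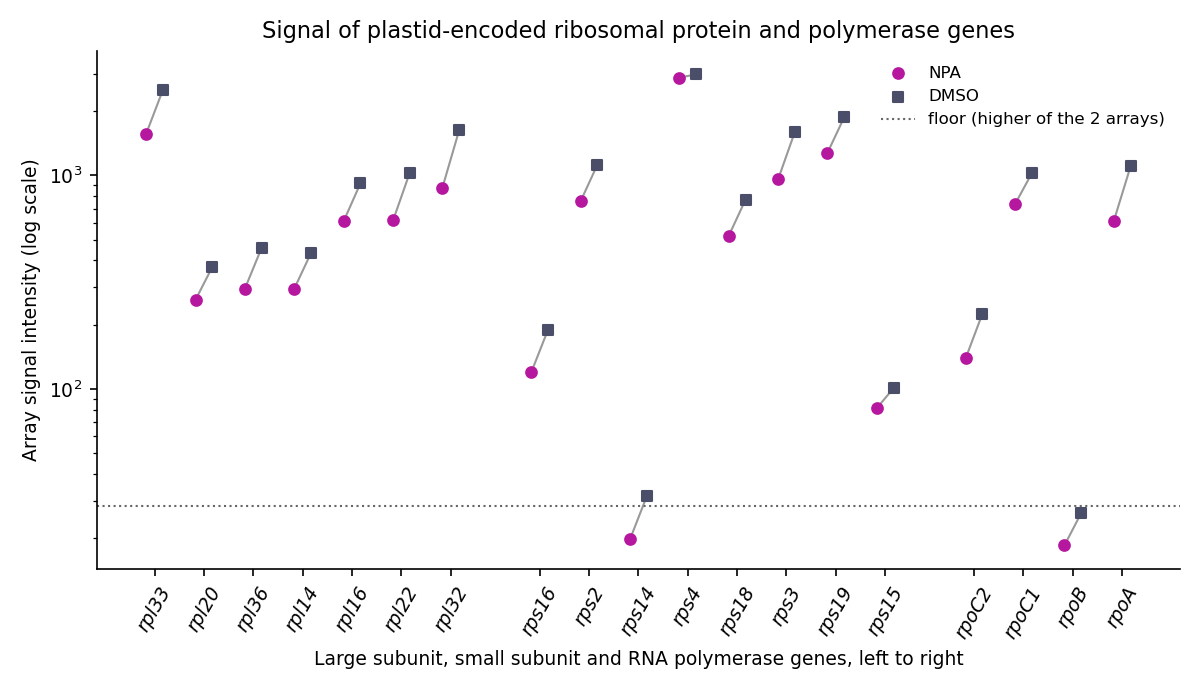
Array signal intensity (log axis) of the 19 genes on the NPA array (circles, left of each pair) and the DMSO array (squares, right), 1 array each, with the floor of 28.3 as a dotted line. The NPA value is the lower of the pair for every gene, the pair of rps4 is nearly level at 2870 with NPA and 2977 with DMSO, and rpoB lies under the floor on both arrays.

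All 7 large subunit genes were above the floor on both arrays and had log2 ratios from -0.90 to -0.51, with a median of -0.64. The gene rpl32, for the small protein L32, had a signal of 877 with NPA and 1631 with DMSO, a 1.86-fold difference. Protein L22 lines the exit tunnel for new peptides in the bacterial ribosome, and its gene rpl22 had 616 with NPA and 1033 with DMSO, a log2 ratio of -0.75. L33 is dispensable for plastid translation at normal temperature in tobacco but needed in the cold. Its gene rpl33 had 1571 with NPA and 2523 with DMSO, a log2 ratio of -0.68. The gene of L36, another protein that tobacco plastids can do without, had 296 with NPA and 460 with DMSO, a log2 ratio of -0.64. These 4 genes were all at least 1.5-fold lower with NPA.

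The remaining large subunit genes were 1.42-fold to about 1.5-fold lower, on both sides of the limit. L16 lies near the site where transfer RNAs bind in the bacterial ribosome, and rpl16 had a signal of 611 with NPA and 919 with DMSO, a log2 ratio of -0.59. The gene rpl14, whose protein L14 sits at the interface of the subunits, had 295 with NPA and 434 with DMSO, a log2 ratio of -0.56. L20 is an early assembly protein of the large subunit in bacteria, and rpl20 had 262 with NPA and 373 with DMSO, a log2 ratio of -0.51. With an SD of 0.13, the large subunit genes differed among themselves by less than the 18 spike-in probe sets did (SD 0.21). They are nevertheless different probe sets on the same pair of arrays, not replicates.

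The 8 small subunit genes had a wider range, from -0.74 to -0.05, with a median of -0.56 and an SD of 0.25. The gene rps3, whose protein S3 helps form the entry path of the messenger RNA in the bacterial ribosome, had a signal of 959 with NPA and 1600 with DMSO, a log2 ratio of -0.74. The gene rps16, which contains an intron, had 120 with NPA and 190 with DMSO, a log2 ratio of -0.66. Both were at least 1.5-fold lower, and no other small subunit gene was.

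A group of 3 small subunit genes lay close to the median. The gene rps2 had a signal of 758 with NPA and 1123 with DMSO, a log2 ratio of -0.57. The gene rps18 had 521 with NPA and 770 with DMSO, a log2 ratio of -0.56. The gene rps19, for a protein in the head of the small subunit, had 1276 with NPA and 1875 with DMSO, a log2 ratio of -0.56. All 3 were 1.47-fold to 1.48-fold lower.

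The other 3 small subunit genes stood nearer to 0. S15 binds the ribosomal RNA early in assembly in bacteria and is dispensable in tobacco plastids. Its gene rps15 had a signal of 81.4 with NPA and 101 with DMSO, a log2 ratio of -0.31. S4 starts the assembly of the small subunit in bacteria, and its gene rps4 had 2870 with NPA and 2977 with DMSO, only 1.04-fold lower. The log2 ratio of rps4, -0.05, was within the SD of the spike-ins, and it was the only 1 of the 17 genes above both floors for which this held. The SD is a weak limit for single genes, since spike-in probe sets ranged down to -0.61. Genes with smaller differences, from rpl16 at -0.59 to rps4, lay inside that range. The gene rps14 had 19.8 with NPA, under the floor, and 31.5 with DMSO, just over it, so its difference is known only as at least 1.13-fold lower.

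Of the 4 polymerase genes, 3 were measured and all were lower with NPA. The gene rpoA, for the alpha subunit that starts core assembly in the bacterial enzyme, had a signal of 611 with NPA and 1102 with DMSO, a 1.80-fold difference and a log2 ratio of -0.85. The gene rpoC2, for the beta'' subunit, had 139 with NPA and 226 with DMSO, a log2 ratio of -0.70. The gene rpoC1, for the beta' subunit, had 734 with NPA and 1024 with DMSO, a log2 ratio of -0.48. The gene rpoB, for the beta subunit, had 18.5 with NPA and 26.2 with DMSO, under the floor on both arrays, and is given no fold. The median of the 3 measured genes was -0.70.

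Grouping the genes by the unit in which they are transcribed gave a narrower range in some units than in others. The longest unit runs from rpl23 to rpoA and holds genes of both subunits and of the polymerase. Its 7 measured genes, in the order rps19, rpl22, rps3, rpl16, rpl14, rpl36 and rpoA, had log2 ratios of -0.56, -0.75, -0.74, -0.59, -0.56, -0.64 and -0.85. Ratios did not change steadily along the unit: the lowest values were those of rpoA at its end and of rpl22 and rps3 near its start. The median was -0.64 and the SD 0.11, against an SD of 0.20 over the 17 genes above both floors. Those 17 include these 7, and their SD is widened by rps4, at -0.05, and rps15, at -0.31. The SDs therefore do not show that this unit is more uniform than the other genes. The neighbouring pair rpl33 and rps18 had -0.68 and -0.56. The photosystem I gene psaJ, next to rpl33 in genome order, was not written into this unit and had -0.19. In the rpoB unit, rpoC1 and rpoC2 had -0.48 and -0.70, with rpoB not measured.

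Where a ribosomal protein gene shares its unit with genes of another function, the values beside it were sometimes like its own and sometimes not. The gene rps2 leads a unit of ATP synthase genes, where its log2 ratio of -0.57 stood beside -1.03 for atpI, 0.05 for atpH, -0.26 for atpF and -0.19 for atpA. That spread of 1.08 within a single unit was wider than the spread of 0.84 over all 18 genes. The signal of atpI was 41.8 with NPA and 85.0 with DMSO, so the gene next to rps2 was 2-fold lower, the only plastid gene to reach that size with this floor. The gene rpl20 had -0.51 beside -0.41 for clpP, the protease subunit gene of its unit. The gene rps15 had -0.31 beside -0.67 for ndhH, whose signal of 41.8 with NPA and 66.4 with DMSO was not far above the floor. Only ndhH and rps15 were written into that unit. Beyond ndhH in genome order, ndhA, ndhI, ndhG, ndhE, psaC and ndhD had -0.37, -0.17, -0.84, -0.26, -0.41 and -0.38. The photosystem I genes psaA and psaB, in the unit that ends with rps14, had -0.07 and -0.15.

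Genes outside these units are set beside their nearest named neighbours. The gene rps16, at -0.66, stands between matK, at -0.45, and psbK, at -0.25. The gene rps4, at -0.05, stands between ycf3, at -0.62, and ndhJ, at -0.60. The gene rpl32, at -0.90, stands between ndhF and ccsA. The signal of ndhF was under the floor with NPA, at 20.2, and 45.7 with DMSO, at least 1.64-fold lower, so whether it differed less or more than rpl32 is not known, while ccsA had a log2 ratio of -0.49. Just beyond the rpl23 to rpoA unit, next to rpoA at -0.85, the cytochrome genes petD and petB had -0.30 and 0.03.

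**Figure D2:**
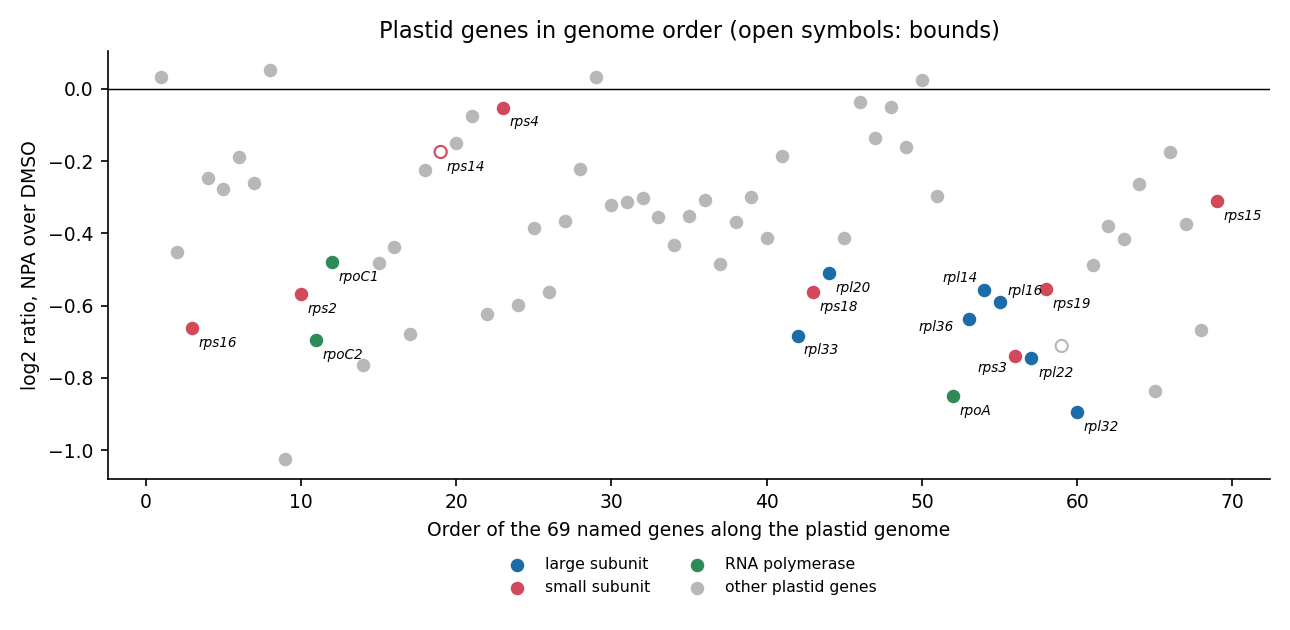
Log2 ratio of NPA over DMSO for the measured plastid genes (1 array per group), in their order along the plastid genome, with large subunit, small subunit and polymerase genes coloured and the other plastid genes in grey. Open symbols are bounds, where 1 array was at the floor. The run from rpoA to rps19 lies between -0.85 and -0.56, and rps4 stands near 0.

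The other plastid genes were lower with NPA as well, by less as a set, though the classes overlapped. Of the 50 others, all measured, 46 had a log2 ratio below 0, and their median was -0.34, against -0.58 for the 18 ribosomal protein and polymerase genes. A log2 ratio of -0.5 or lower was found in 9 of those 50, against 14 of the 18. Among genes above both floors, 15 of the 17 ribosomal protein and polymerase genes lay below the median of the other plastid genes, rps15 and rps4 being the exceptions. The median was -0.29 over the 32 photosystem, cytochrome and ATP synthase genes and -0.48 over the 10 genes of the NADH dehydrogenase-like complex, of which 1 was a bound. At least 1.5-fold lower were 8 of the 50 others, against 9 of the 18. By class, 4 of the 10 NADH dehydrogenase-like genes were lower by that size, against 2 of the 8 small subunit genes. Their mean log2 ratios were -0.50 and -0.45, the reverse of the order of their medians, -0.48 and -0.56. The medians of the 18 genes and of the 50 others differed by -0.24, and with 1 array per group this difference was not tested. The 6 measured mitochondrial genes, matched by symbol, had a median log2 ratio of -0.01 and ranged from -0.22 to 0.26.

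**Figure D3:**
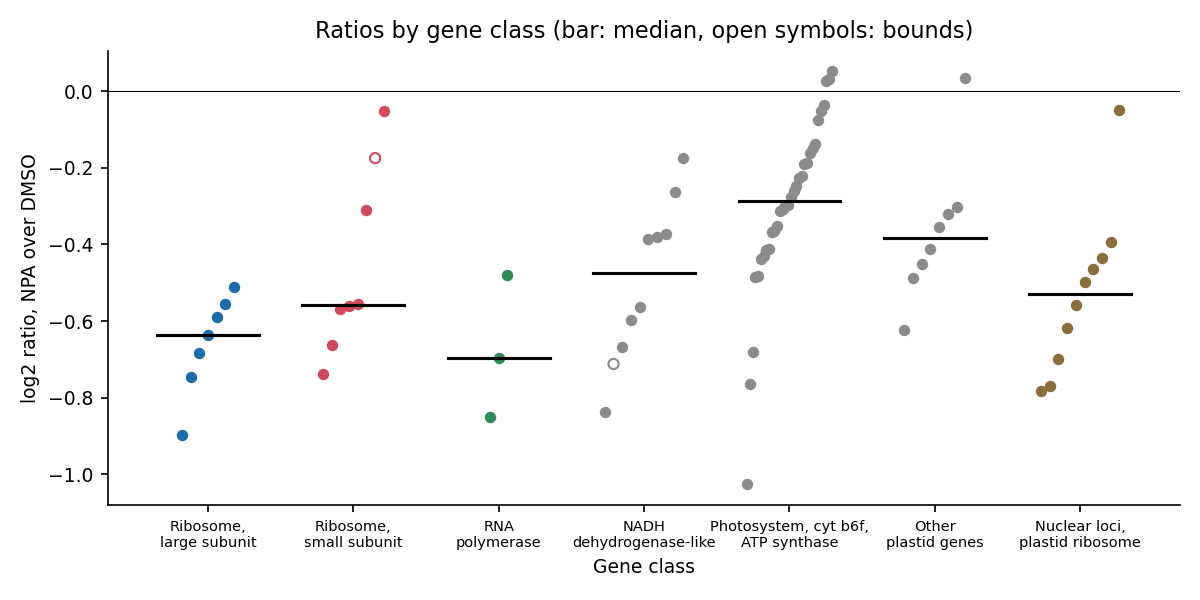
Log2 ratio of NPA over DMSO for each measured gene, by class of plastid gene and for 10 nuclear loci of plastid ribosomal proteins, with 1 array per group. Points are genes, bars are medians and open symbols are bounds. The medians are -0.64 for the large subunit, -0.56 for the small subunit, -0.70 for the polymerase, -0.48 for the NADH dehydrogenase-like genes, -0.29 for the photosystem, cytochrome and ATP synthase genes and -0.53 for the nuclear loci.

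Nuclear genes for the same ribosome had similar values in the signals as deposited. Of 38 loci listed from general knowledge as nuclear genes of plastid ribosomal proteins, 10 were named on the array by locus only, and all 10 were above both floors with a log2 ratio below 0. Their median was -0.53, with a range from -0.78 to -0.05, and 4 were at least 1.5-fold lower and none 2-fold. After lowess centring, which takes out the trend with signal, their median was -0.28, against -0.44 for the 18 plastid genes. AT1G29070 had a signal of 1173 with NPA and 2016 with DMSO, a log2 ratio of -0.78. AT1G64510 had 879 with NPA and 1499 with DMSO, a log2 ratio of -0.77, and AT4G17560 had 344 with NPA and 559 with DMSO, a log2 ratio of -0.70. AT2G43030 had a log2 ratio of -0.62. At the other end, AT5G24490, listed as PSRP1, had 548 with NPA and 567 with DMSO, a log2 ratio of -0.05. It alone set that end of the range, since the next locus, AT3G54210, had -0.39.

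The nuclear genes listed for phage-type polymerases and for partners of the plastid-encoded polymerase could hardly be read. Of 3 phage-type polymerase loci, 1 was named, AT5G15700, and its signals of 10.8 with NPA and 9.60 with DMSO were both below the floor. None of the 6 sigma factor loci and none of the 13 loci of polymerase-associated proteins was named, and these were not analysed here.

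Bright nuclear transcripts were also lower on the NPA array, so values are given by signal. Among genes with a mean signal over 1000, the 5 ribosomal protein and polymerase genes had a median log2 ratio of -0.68, the 25 other plastid genes -0.28 and the 130 nuclear genes -0.38. Between 200 and 1000, the medians were -0.57 for 9 ribosomal protein and polymerase genes, -0.31 for 16 other plastid genes and -0.03 for 1276 nuclear genes. Under 200, the medians of genes above both floors were -0.66 for 3 ribosomal protein and polymerase genes and -0.65 for 8 other plastid genes. With the bounds of rps14 and ndhF counted at their floored values these medians were -0.49 and -0.67, and the median of 6253 nuclear genes was -0.02. With so few dim genes, and with rps14 setting the order, the values under 200 give no order between the plastid sets.

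**Figure D4:**
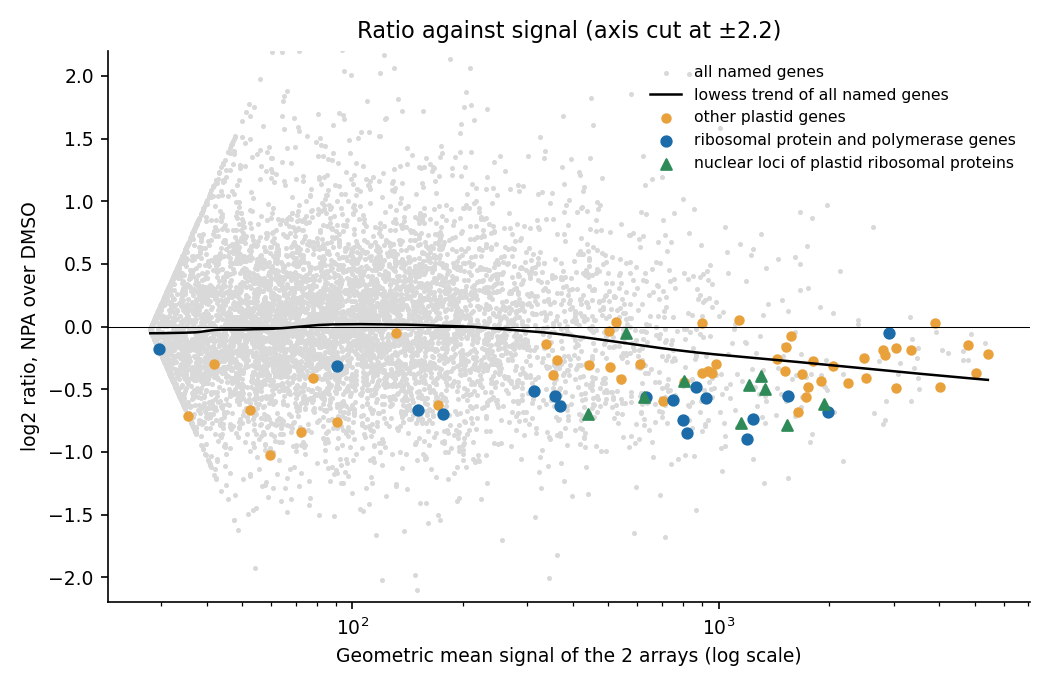
Log2 ratio of NPA over DMSO against the geometric mean signal of both arrays (log axis), for all measured named genes (grey, with the lowess trend in black), with 1 array per group. The 18 ribosomal protein and polymerase genes (blue) lie below the trend except rps4. The trend itself bends below 0 at high signal, and genes beyond a log2 ratio of 2.2 are not drawn.

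Scaling the arrays in other ways moved the size of the difference more than its direction. After lowess centring, which takes out the trend with signal, the median of the 18 genes was -0.44, with 17 below 0 and 4 at least 1.5-fold lower. Quantile normalization gave -0.51, with 17 below 0 and 6 at least 1.5-fold lower. In both cases rps4 was the exception, at 0.30 and 0.25. The other plastid genes then had medians of -0.11 and -0.21, and the nuclear loci of plastid ribosomal proteins -0.28 and -0.37. The difference between the medians of the ribosomal protein and polymerase genes and of the other plastid genes became -0.33 and -0.30 under these scalings. When the median of all plastid genes was set to 0, 15 of the 18 genes stayed below it, with a median of -0.19, and rps4, rps14 and rps15 were above it. The value of rps14 here is a bound set by the floor. Which gene lay lowest depended on the scaling. As deposited rpl32 and rpoA were lowest, whereas rpoC2 was lowest after quantile normalization, at -0.75, and after lowess centring, at -0.70. After lowess centring rps16, at -0.67, also lay below rpl32 and rpoA, both at -0.65.

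**Figure D5:**
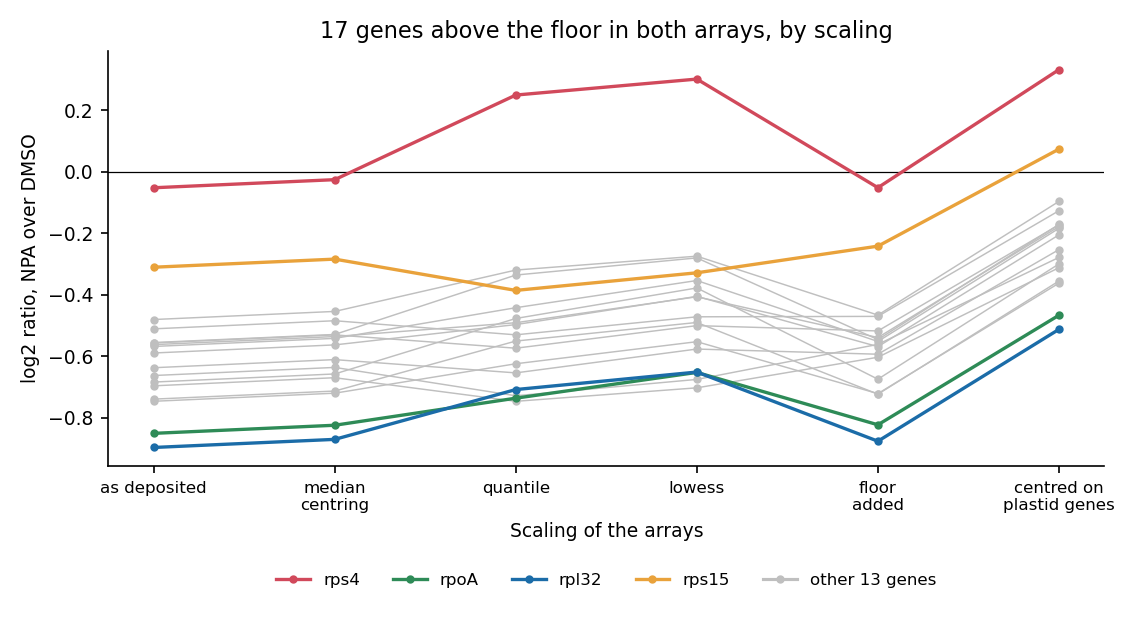
Log2 ratio of NPA over DMSO for the 17 genes above both floors under 6 scalings of the arrays, 1 line per gene. The line of rps4 lies highest, at -0.05 as deposited and 0.30 after lowess centring, and rpl32 and rpoA lie lowest as deposited, at -0.90 and -0.85.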

How the data were processed

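Each probe set has a linear signal intensity per array, as deposited. MAS5 and GCOS made these intensity values, per the submitters' processing notes, which give no versions. The trimmed mean was 100.0 on both arrays, so they had been scaled to a common mean. Per the labels, target was made with the one-cycle protocol, which primes on poly(A). Plastid transcripts carry such tails mainly as a mark for decay, so their signals may follow tailing as well as abundance. This was not tested.

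Of 22746 probe sets, 13513 list 1 gene, 503 several and 8730 none. Genes were placed in the plastid through the TAIR10.1 gene table, used for names and gene order only. A gene took its brightest single-gene probe set. Signals under the 40th percentile were set to that floor, and the log2 ratio of NPA over DMSO was taken. Every gene of the set is named, with neighbours in its unit as written. From the nuclear lists, loci at 2-fold and the 4 furthest from 0 were named. The loci nearest 0, and the neighbours matK, psbK, ycf3, ndhJ, ndhF, ccsA, petD and petB, were chosen after values were seen. So were psaJ and the genes from ndhA to ndhD. The genes and lists were chosen with earlier results of these data known. Transcription units were written from general knowledge. The steps were tested on simulated arrays, with changes larger than those of these genes planted in bright genes only. Recovery of changes as small as those reported here was not tested. Python 3.11.15, numpy 2.4.6, pandas 2.3.3, statsmodels 0.14.6 and matplotlib 3.10.9 were used.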

Additional observations from a re-analysis of the deposited data

How the results depend on the processing

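No paired analysis was possible because each group has only 1 array. Leaving out an array was likewise impossible. A value is said to have moved when it changed by more than the SD of the spike-ins, 0.21, or, for a count, by more than 1.5 times. Of 161 values of single genes under the alternatives, 133 did not move and 28 did. No gene was at 2-fold, so none could be reversed from that size, but signs did change: rps4 was above 0 after lowess centring (0.30) and quantile normalization (0.25), and rps4, rps14 and rps15 were above 0 with the plastid median set to 0. Of 144 counts and medians, 119 did not move and 25 did. The causes were not tested, except where a rule or a centring changes a value by construction.

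After lowess centring the medians were -0.34 for the small subunit, -0.39 for rpl33 and rps18, -0.11 for the other plastid genes and -0.28 for the nuclear loci of plastid ribosomal proteins, and 4 genes were at least 1.5-fold lower. With the plastid median set to 0, the medians were -0.19 for the 18 genes, -0.25 for the large subunit, -0.17 for the small subunit, -0.31 for the polymerase, -0.25 for the rpl23 to rpoA unit, -0.20 for rpoC1 and rpoC2, -0.24 for rpl33 and rps18, 0.047 for the other plastid genes and -0.15 for the nuclear loci, and 0 genes were 1.5-fold lower. The 1.5-fold rule took in 9 of the 18 genes, against 0 at 2-fold. Over all named genes, 291 were 2-fold higher and 165 lower. A floor at the 25th percentile gave 297 lower, no floor gave 1102 and 1340, adding the floor to each signal gave 174 and 71, and other size rules gave 869 and 822 at 1.5-fold and 75 and 18 at 3-fold. Higher genes thus outnumbered lower ones with the floor and not without it.

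With lower floors or none, rps14 had a log2 ratio of -0.67 and rpoB entered as a measured gene, which gave 19 genes, all below 0, with a median of -0.59. At the 55th percentile rps14 dropped out and the other 17 had the same median. Counts at 1.5-fold under the alternatives, the 5 probe sets of repeated genes and the restriction to genes above both floors were added after the data were seen. Under the latter pair the median of the genes was -0.56 and -0.59.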
